A study of Homo sapiens with 19 samples.

Results

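The 10 genes described here encode the core of the switch that takes a cell from G2 into mitosis: the kinase CDK1, its cyclins CCNA2, CCNB1 and CCNB2, the phosphatases CDC25B and CDC25C, the opposing kinase WEE1, the mitotic kinases PLK1 and AURKA, and the transcription factor FOXM1. They were taken by symbol from the deposited count table, where all 10 were found among 23367 genes and all 10 passed the filter on low counts that left 14793 genes for testing. The study followed RNA in SHEP TET21N, a human neuroblastoma line that carries a MYCN transgene which doxycycline turns off. It is 1 line, so nothing here shows how other neuroblastoma cells respond.

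The 19 libraries fall into 10 groups by MYCN state and time. MYCN-high cells grew without doxycycline and every MYCN-low group grew with it, so the drug that sets the MYCN state is present in all MYCN-low libraries and in no MYCN-high library. In each state the groups are untreated cells (0 h), cells after 72 h in doxorubicin at 0.1 µg/ml, and cells taken 3, 8 and 14 days after the doxorubicin was washed out. The labels give biological duplicates, lettered B and C, except for MYCN-low cells at 14 days, where library B alone was given. Each state has a single untreated group and no untreated cells of matched culture time, so time in culture and time after the drug cannot be told apart.

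Libraries held 16547663 to 27664604 counts. MYCN stood at 594 to 1416 CPM (read counts scaled to an equal library size) in the MYCN-high libraries and at 13.5 to 30.7 CPM in the MYCN-low ones, as the labels have it. Of the markers of adrenergic neuroblastoma given here, PHOX2A was at 0 in every library, TH and DBH did not exceed 0.0975 CPM and HAND2 reached 46.0 to 325 CPM, while the mesenchymal list (VIM, FN1, PRRX1, YAP1 and CD44) summed to 1593 to 13984 CPM. Markers of blood, endothelial, epithelial and liver cells summed to at most 3.41 CPM. The MYCN-high pair at 72 h differs within itself in ways that touch the results. Its spike-in share was 0.0116% of counts in one library and 0.191% in the other. Its MYCN level was 633 CPM in one and 1416 CPM in the other. Between the libraries 7 of the 10 genes differed by more than 2-fold, and the part of spike-in share and MYCN level in this was not tested. Spike-in shares differed between replicates elsewhere too, by 2.56-fold in the untreated MYCN-high pair and 3.07-fold in the untreated MYCN-low pair. In MYCN-high cells the gap was 4.61-fold at 3 days and 3.72-fold at 14 days. It was smallest, at 1.08-fold, in MYCN-low cells at 8 days. Values by spike-in scaling carry this spread.

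CDK1 drives mitosis once it is bound to a cyclin and freed of inhibitory phosphate. WEE1 adds that phosphate and CDC25 phosphatases remove it; PLK1 and AURKA push the balance toward removal, and damaged DNA pushes it back. FOXM1, with the MuvB complex, activates many of the same genes late in the cell cycle, through promoters that often carry a cell cycle homology region (CHR, TTTGAA or TTCGAA) and upstream CCAAT boxes. When p53 is active and cells stop dividing, this group of genes is known to be repressed together through the same elements.

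The promoter elements are shown because the genes moved together. RefSeq promoter windows (GRCh38.p14, from 250 bases before to 50 after a start site, 300 bases) were matched by symbol for 7 of the 10 genes; AURKA, FOXM1 and WEE1 are named only. Stretches below run 5′ to 3′ on the gene's strand, and capitals mark the CHR.
CCNB2: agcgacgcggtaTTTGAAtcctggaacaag
PLK1: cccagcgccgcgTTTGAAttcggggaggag
CDC25C: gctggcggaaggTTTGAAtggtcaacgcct
CDK1: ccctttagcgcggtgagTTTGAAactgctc
CDC25B: ctgctgttatttTTCGAAtatataaggagg
The CCNB2 stretch lies at chr15:59105105-59105134 on the + strand, that of PLK1 at chr16:23678848-23678877 on the + strand and that of CDC25C at chr5:138331817-138331846 on the - strand. The CDK1 stretch lies at chr10:60778448-60778477 and the CDC25B stretch at chr20:3796260-3796289, both on the + strand. The element begins 29 bases before the start in CCNB2 and PLK1, 30 before in CDC25C, 38 before in CDC25B and 13 before in CDK1, which has another 69 bases before.

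In CCNA2 and CCNB1 no CHR in these letters was found in the windows given, and CCAAT boxes are shown instead in capitals; ATTGG is CCAAT read on the other strand. A longer CCNB2 stretch shows 2 of its 4 CCAAT boxes.
CCNB1: gccacgaacaggCCAATaaggagggagcag
CCNA2: gcgagcgctttcATTGGtccatttcaatag
CCNB2: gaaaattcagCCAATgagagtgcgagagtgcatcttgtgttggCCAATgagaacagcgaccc
These lie at chr5:69167083-69167112 on the + strand for CCNB1, at chr4:121823922-121823951 on the - strand for CCNA2 and at chr15:59105016-59105077 on the + strand for CCNB2. Searched on both strands, TTTGAA was present in 4 of the 7 genes and in 18.2% of 27305 genes with a window, and TTCGAA in 1 of the 7 (CDC25B) and in 1.82% of genes. CCAAT was present in 7 of the 7 and in 39.7% of genes, and a CHR of either form together with CCAAT in 5 of the 7 and in 7.85%. The E-box CACGTG, the core site of MYC proteins, was present in 2 of the 7 (CCNB1 and PLK1) and in 8.77% of genes. By position, no 2 different matches in these 7 genes share a base. Windows of CDC25C overlap, so its CHR lies 30 bases before 1 start and 43 bases after another. A match is a description of the sequence only.

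After 72 h of doxorubicin every one of the 10 genes had fallen in both MYCN states. In MYCN-high cells 10 of 10 were lower than in untreated cells (edgeR quasi-likelihood test, Benjamini-Hochberg adjusted p under 0.05), where 17.9% of all tested genes were lower. In MYCN-low cells 10 of 10 were lower, against 12.1% of tested genes. The median log2 change of the 10 was -3.70 in MYCN-high and -5.98 in MYCN-low cells, beside medians of 0.03 and 0.01 over all tested genes. Mean levels at 72 h ranged from 4.72% (CCNA2) to 35.3% (CDC25B) of the untreated mean in MYCN-high cells and from 0.202% (CDC25C) to 39.8% (WEE1) in MYCN-low cells. The libraries of the treated and untreated groups did not overlap for any of the 10 genes in either state, a separation downward that 33.6% and 25.8% of tested genes showed. These are bulk libraries, in which fewer dividing cells and less RNA per cell cannot be told apart. Leaving out any 1 library kept 10 of 10 calls in both states. With libraries scaled by the spike-ins, CDC25B and WEE1 turned to a rise in MYCN-high cells (log2 changes of 0.41 and 0.19) and the other 8 genes kept a fall there, as did all 10 in MYCN-low cells. That scaling moved the median log2 change of all tested genes to 2.37 in MYCN-high and 0.52 in MYCN-low cells, and to between -1.44 and 2.51 over the contrasts. A value with the same sign as such a shift tends to keep its sign, so a kept sign adds little there. Under spike-in scaling 0 of the 10 passed in MYCN-high cells (70 of 14793 genes did) and 2 in MYCN-low cells (60 of 14793 did). In every other contrast below 0 of the 10 passed, and fewer than 60 of all tested genes did.

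**Figure D1:**
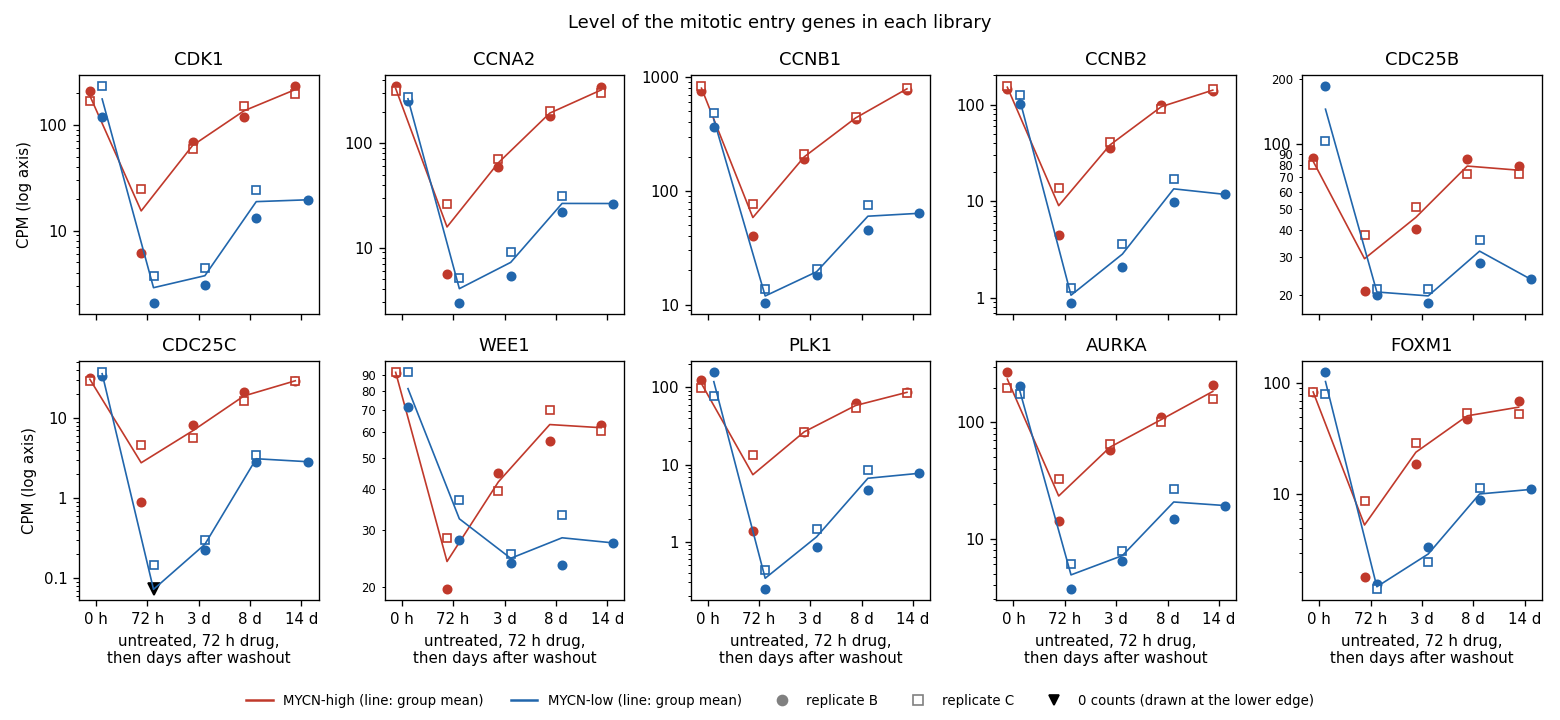
Level of each of the 10 genes in every library (CPM, log axis) by time, with MYCN-high cells in red and MYCN-low cells in blue; circles are replicate B, squares replicate C, lines join group means, and the triangle at the lower edge marks a library with 0 counts. On this scale all 10 genes drop at 72 h in both states (by spike-in scaling CDC25B and WEE1 do not drop in MYCN-high cells), and at 8 and 14 days the blue points lie below the red ones in every panel.

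CDK1, the catalytic subunit on which entry into mitosis depends, is given first, with replicates in the order B, C. In MYCN-high cells it stood at 211 and 167 CPM untreated, 6.15 and 24.5 CPM at 72 h, 68.4 and 59.3 CPM at 3 days, 119 and 152 CPM at 8 days and 235 and 197 CPM at 14 days. In MYCN-low cells it stood at 118 and 234 CPM untreated, 2.04 and 3.72 CPM at 72 h, 3.03 and 4.45 CPM at 3 days, 13.2 and 24.4 CPM at 8 days and 19.6 CPM at 14 days. The untreated libraries of the states overlap, and from 72 h onward every MYCN-high library lies above every MYCN-low one of the same time. The fall at 72 h was -3.63 ± 0.51 (log2, ± SE, adjusted p = 5.98e-05) in MYCN-high and -5.93 ± 0.59 (adjusted p = 2.59e-06) in MYCN-low cells by edgeR, a direction that spike-in scaling kept in both.

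The A and B cyclins are the regulatory subunits that switch CDK1 on. CCNB1, the B-type cyclin held in the cytoplasm until mitosis, had 758 and 840 CPM in untreated MYCN-high cells, then 40.5 and 76.3 CPM at 72 h, 189 and 209 CPM at 3 days, 430 and 445 CPM at 8 days and 773 and 805 CPM at 14 days. In MYCN-low cells it had 363 and 484 CPM untreated, then 10.3 and 13.6 CPM at 72 h, 18.3 and 20.7 CPM at 3 days, 45.0 and 74.9 CPM at 8 days and 63.6 CPM at 14 days. The replicates of CCNB1 lie close together at every time except 72 h in MYCN-high cells and 8 days in MYCN-low cells.

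CCNB2, the second B-type cyclin, reached a lower point. Its 72 h libraries held 4.45 and 13.5 CPM in MYCN-high and 0.876 and 1.26 CPM in MYCN-low cells, from 146 and 157 CPM and 102 and 125 CPM untreated. At 14 days it had 138 and 144 CPM in MYCN-high and 11.8 CPM in MYCN-low cells. The groups at 72 h do not overlap, and the edgeR changes from untreated cells were -4.08 ± 0.40 (adjusted p = 2.87e-06) and -6.72 ± 0.49 (adjusted p = 2.47e-07), with the same direction by spike-in scaling. CCNA2, the cyclin of S phase and early mitosis, fell from 355 and 313 CPM to 5.56 and 26.0 CPM in MYCN-high cells, the deepest fall of the 10 there by fitted log2 change (-4.41 ± 0.50, edgeR adjusted p = 9.04e-06), also a fall by spike-in scaling. In MYCN-low cells CCNA2 went from 256 and 276 CPM to 2.92 and 5.17 CPM. MYCN-high library B at 72 h lay only just above the higher MYCN-low library for this gene.

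CDC25B and CDC25C, phosphatases that activate CDK1, are given next. CDC25C had 32.1 and 29.1 CPM in untreated MYCN-high cells, 0.891 and 4.64 CPM at 72 h, 8.21 and 5.63 CPM at 3 days, 21.3 and 16.5 CPM at 8 days and 29.0 and 29.5 CPM at 14 days. In MYCN-low cells it had 33.7 and 38.1 CPM untreated, 0 and 0.145 CPM at 72 h, 0.226 and 0.304 CPM at 3 days, 2.80 and 3.41 CPM at 8 days and 2.85 CPM at 14 days. The MYCN-low libraries at 72 h hold 0 and 3 reads of CDC25C, beside 1567 in the untreated pair, a ratio of 498 after scaling for library size (95% exact interval 170 to 2417, which covers counting error only). At the same time the MYCN-high pair held 118 reads, 36.5 times as many as the MYCN-low pair after the same scaling (95% exact interval 12.2 to 179). With so few reads the fitted log2 change of CDC25C in MYCN-low cells, -8.83 ± 0.76, depends on how 0 counts are handled and is best read beside these ratios.

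CDC25B kept more of its level. It had 85.9 and 80.3 CPM in untreated MYCN-high cells, 20.7 and 37.9 CPM at 72 h, 40.5 and 50.8 CPM at 3 days, 85.4 and 72.5 CPM at 8 days and 78.9 and 72.2 CPM at 14 days. In MYCN-low cells it had 186 and 104 CPM untreated, 20.0 and 21.2 CPM at 72 h, 18.2 and 21.2 CPM at 3 days, 27.9 and 35.7 CPM at 8 days and 23.5 CPM at 14 days. CDC25B is the 1 gene of the 10 whose untreated level was lower in MYCN-high than in MYCN-low cells by the test (-0.80 ± 0.27, edgeR adjusted p = 0.032), a direction that spike-in scaling turned (0.12), and the call was lost without untreated MYCN-low library B (-0.32, adjusted p = 0.45).

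WEE1, the kinase that holds CDK1 inactive, had the smallest fitted fall of the 10 in MYCN-low cells at each treated time, a fall by spike-in scaling as well. It had 71.4 and 91.7 CPM there untreated, 27.8 and 37.0 CPM at 72 h, 23.7 and 25.3 CPM at 3 days, 23.4 and 33.3 CPM at 8 days and 27.3 CPM at 14 days. In MYCN-high cells it had 91.1 and 92.0 CPM untreated, 19.7 and 28.3 CPM at 72 h, 44.8 and 39.5 CPM at 3 days, 56.2 and 70.3 CPM at 8 days and 63.2 and 60.5 CPM at 14 days. WEE1 was the 1 gene with a lower mean in MYCN-high than in MYCN-low cells at 72 h, though the libraries overlap and the difference did not pass the test (-0.44 ± 0.22, edgeR adjusted p = 0.15); spike-in scaling turned its sign (1.78).

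PLK1 and AURKA are kinases that act on the CDK1 switch and on the spindle. PLK1 had 125 and 98.5 CPM in untreated MYCN-high cells, 1.40 and 13.4 CPM at 72 h, 26.8 and 26.5 CPM at 3 days, 62.3 and 54.4 CPM at 8 days and 87.7 and 85.0 CPM at 14 days. In MYCN-low cells it had 160 and 77.4 CPM untreated, 0.243 and 0.435 CPM at 72 h, 0.860 and 1.47 CPM at 3 days, 4.76 and 8.58 CPM at 8 days and 7.74 CPM at 14 days. PLK1 has the widest gap between replicates of all 10 genes at 72 h in MYCN-high cells, and its lower library there is still above both MYCN-low libraries. AURKA had 274 and 199 CPM in untreated MYCN-high and 204 and 174 CPM in untreated MYCN-low cells. At 72 h it had 14.2 and 32.3 CPM against 3.65 and 6.08 CPM, and at 14 days 212 and 158 CPM against 19.3 CPM. AURKA overlaps between the states before treatment, and from 72 h onward libraries of the same time no longer do.

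FOXM1, the transcription factor of the set, had 83.7 and 83.4 CPM in untreated MYCN-high cells, 1.82 and 8.80 CPM at 72 h, 18.9 and 29.1 CPM at 3 days, 48.1 and 53.9 CPM at 8 days and 68.9 and 53.0 CPM at 14 days. In MYCN-low cells it had 127 and 80.0 CPM untreated, 1.56 and 1.40 CPM at 72 h, 3.35 and 2.48 CPM at 3 days, 8.84 and 11.4 CPM at 8 days and 11.1 CPM at 14 days. At 72 h FOXM1 in MYCN-high library B was within 1.23-fold of the MYCN-low mean, while library C was 5.95-fold above it.

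The spread between replicates at 72 h in MYCN-high cells bears on every value at that time. Library C exceeded library B for 10 of 10 genes, by 1.44-fold (WEE1) to 9.60-fold (PLK1) with a median of 3.52-fold, and 7 of the 10 differed by more than 2-fold. Among 10436 genes with a mean of at least 5 CPM, 4.33% differed by more than 2-fold in that pair. Their median log2 ratio was -0.0036, but TMM scaling brings such a ratio near 0 by design. It therefore does not show whether the libraries as wholes were level. In the other MYCN-high groups no gene of the 10 differed by more than 2-fold between replicates. In MYCN-low cells 9 of 10 were higher in C at 72 h, and 10 of 10 were higher in C at 8 days by 1.22-fold to 1.84-fold. The untreated MYCN-low pair ran from 0.483 (PLK1) to 1.99 (CDK1) as the ratio C over B, with 9.01% of all those genes more than 2-fold apart.

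**Figure D2:**
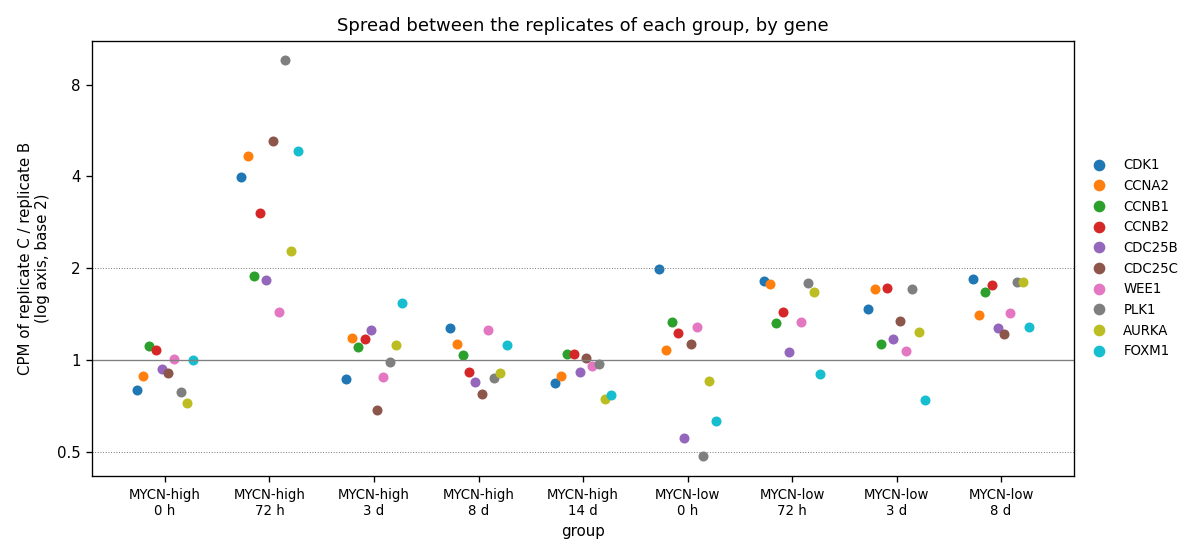
Ratio of replicate C to replicate B (log axis) for each of the 10 genes in the 9 groups with 2 libraries; each point is 1 gene and the line at 1 marks equal levels. The MYCN-high points at 72 h all lie above 1 and reach 9.60, while the other groups stay closer to 1; CDC25C in MYCN-low cells at 72 h is not drawn because library B has 0 counts.

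The question of which untreated levels differ by MYCN state was asked before that of the response. Of the 10 genes 2 passed the test at 0 h, where 35.1% of tested genes did: CCNB1 was higher in MYCN-high cells (0.92 ± 0.27, edgeR adjusted p = 0.016), also by spike-in scaling, and CDC25B was lower, as given above. Spike-in scaling put the median of all tested genes at 0.62 in this contrast. Without untreated MYCN-low library B or untreated MYCN-high library C none of the 10 passed, and without MYCN-high library B 1 did. CCNA2 and CCNB2 libraries were also higher in MYCN-high cells without overlap, a separation that 30.5% of tested genes showed, but did not pass the test (0.33 ± 0.43 and 0.42 ± 0.35, adjusted p = 0.59 and 0.39). CDC25C libraries were separated the other way, lower in MYCN-high cells, and did not pass either (-0.23 ± 0.42, adjusted p = 0.71), with a positive sign by spike-in scaling (0.45).

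At 72 h 8 of the 10 genes were higher in MYCN-high than in MYCN-low cells by the test, against 15.5% of tested genes, and the 8 kept that direction by spike-in scaling. That scaling moved the median of all tested genes to 2.51 in this contrast, so a positive value tends to stay positive under it. CDC25B (0.51 ± 0.28, edgeR adjusted p = 0.19) and WEE1 did not pass. The largest fitted differences were those of CDC25C (5.12 ± 0.85, adjusted p = 0.00037), PLK1 (4.41 ± 0.88, adjusted p = 0.0015) and CCNB2 (3.06 ± 0.47, adjusted p = 0.00019). The choice of replicate moved these values. Without MYCN-high library C 5 of the 10 passed, and CCNA2 (0.45, adjusted p = 0.41), CDK1 (1.09, adjusted p = 0.12) and FOXM1 (0.30, adjusted p = 0.68) did not. Without MYCN-high library B 9 passed, CDC25B among them (0.88, adjusted p = 0.034). Without MYCN-low library B 5 passed. RMRP and RPPH1, the 2 structured RNAs of 7 on that list found in the table, had a higher sum in the MYCN-high libraries at 72 h, and 1 of the 2 passed the test between the states. They summed to 5012 and 6361 CPM in those libraries, against 2157 and 3597 CPM in MYCN-low, 2521 and 2783 CPM in untreated MYCN-high and 2473 and 5794 CPM in untreated MYCN-low libraries. Their part in the result was not tested.

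After washout the states stayed apart. At 3, 8 and 14 days 10 of 10 genes were higher in MYCN-high cells, beside 17%, 23.4% and 21.4% of tested genes, with median log2 differences of 3.26, 2.71 and 3.41 and no reversal by spike-in scaling. That scaling put the median of all tested genes at 1.82, 0.79 and -0.83 at these times. It thus worked against a positive sign at 14 days only. No library of the 2 states overlapped for any of the 10 genes at these times, a separation that 37.6%, 39.7% and 43.6% of tested genes showed. WEE1 had the smallest difference at each, at 0.78 ± 0.22 (adjusted p = 0.013), 1.15 ± 0.22 (adjusted p = 0.0006) and 1.18 ± 0.28 (adjusted p = 0.0037) by edgeR. At 3 days the call of WEE1 was lost without MYCN-high library B (adjusted p = 0.097) and also without MYCN-low library B or C, that of CDC25B was lost without MYCN-low library B (adjusted p = 0.05022), so that 8 to 10 calls were kept, and at 8 and 14 days leaving out any library kept 10 of 10. The mesenchymal markers moved with the states as well: they summed to 1593 to 2515 CPM in the MYCN-high libraries and to 4219 to 13984 CPM in the MYCN-low ones over all times. So did the sum of RMRP and RPPH1, at 5165 to 5861 CPM against 2854 to 3271 CPM at 3 days, 3961 to 4908 against 2750 to 3063 CPM at 8 days and 5076 to 6462 against 3518 CPM at 14 days. Taken singly, 1 of these 2 RNAs passed the test between the states at 3 days, and neither did at 8 or 14 days. The part of either list in the result was not tested.

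**Figure D3:**
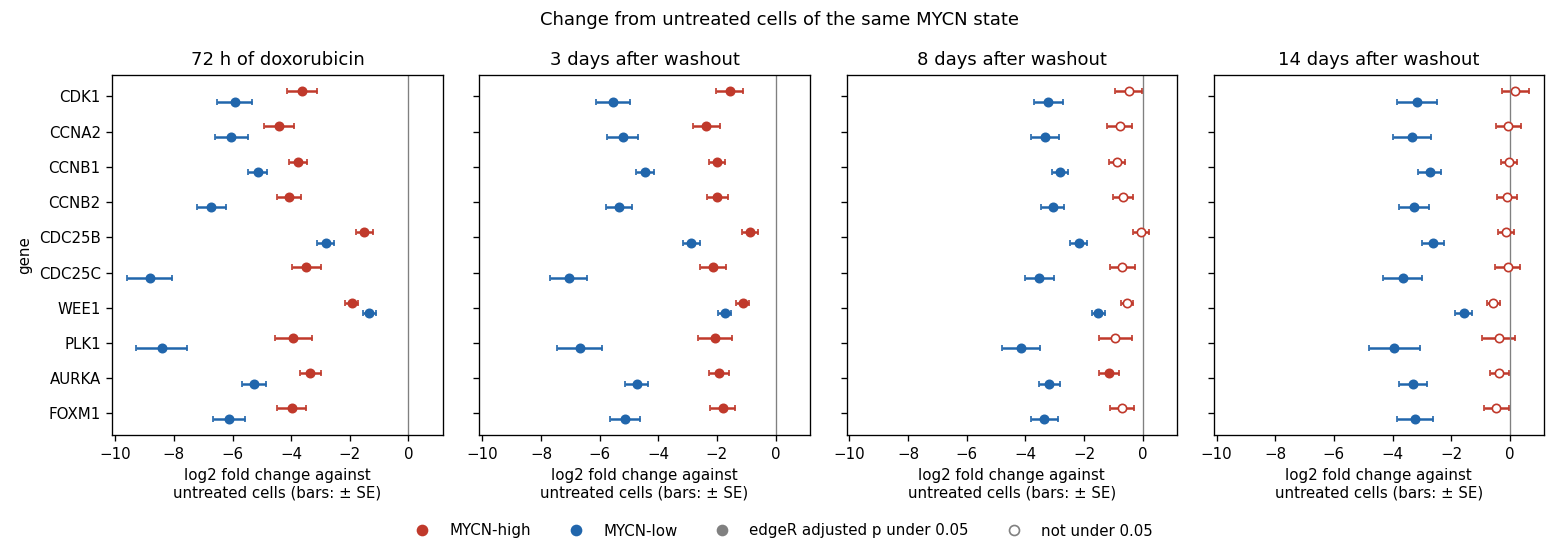
Change of each of the 10 genes from untreated cells of the same state (log2, ± SE from edgeR) at 72 h and at 3, 8 and 14 days after washout, in MYCN-high (red) and MYCN-low (blue) cells; filled points passed the test. The red points approach 0 by 14 days and the blue points stay below it; by spike-in scaling 2 red points at 72 h, 3 at 3 days, 9 at 8 days and 1 at 14 days have the opposite sign.

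In MYCN-high cells the levels in CPM returned toward the untreated ones. At 3 days 10 of 10 were still lower than untreated (15.7% of tested genes were lower), at 19.4% to 55.0% of the untreated mean, and by spike-in scaling CDK1, CDC25B and WEE1 turned to a rise (0.034, 0.61 and 0.55). That count was 6 without MYCN-high library B at 3 days, where CDC25B (edgeR adjusted p = 0.15), PLK1 (0.079), CDK1 (0.071) and FOXM1 (0.063) missed the threshold. At 8 days 1 of 10, AURKA, was lower (-1.15 ± 0.33, edgeR adjusted p = 0.044; 4.09% of tested genes), also by spike-in scaling, and this call was lost without any one of the 4 libraries, while with no filter on low counts 7 of 10 were lower; the other 9 stood at 52.2% (PLK1) or more of the untreated mean. At 14 days 0 of 10 passed by edgeR, where 0% of tested genes passed in either direction, and 0 of 10 by DESeq2, where 68 of 14793 genes passed; at an unadjusted p under 0.05 there was 1, WEE1 (-0.57 ± 0.22). Mean levels at 14 days ran from 67.6% (WEE1) to 114% (CDK1) of untreated, and a missed threshold does not show that they had returned in full. By spike-in scaling the path differed: at 8 days 9 of the 10, all but AURKA, lay above untreated. At 14 days CDK1 lay below untreated by that scaling (-0.86). It put the median of all tested genes at 1.14 at 8 days and at -1.07 at 14 days.

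In MYCN-low cells the levels stayed low. At 3, 8 and 14 days 10 of 10 were lower than untreated, against 12.7%, 14.6% and 10.7% of tested genes, with no reversal by spike-in scaling and no call lost when a library was left out. Mean levels were 0.738% to 30.1% of untreated at 3 days, 5.62% to 34.8% at 8 days and 6.52% to 33.5% at 14 days. The fit takes the spread of the other groups for the single 14 day library. It lay between the 2 libraries of 8 days for 9 of the 10 genes, and below both for CDC25B, so that 8 and 14 days are not distinguished for those 9. All these contrasts of a state share its untreated pair.

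Between neighbouring times the rises were as follows. In MYCN-high cells 5 of 10 genes rose from 72 h to 3 days (1.71% of tested genes did): CCNB1 (1.77 ± 0.28, edgeR adjusted p = 0.0066), CCNB2 (2.09 ± 0.38, adjusted p = 0.011), FOXM1 (2.18 ± 0.46, adjusted p = 0.022), CCNA2 and CDK1, all upward by spike-in scaling too. Libraries of both times weighed on that count, those of the wide 72 h pair among them. All 5 calls were lost without library B of 72 h or library C of 3 days. Most were lost without library B of 3 days, and more of the 10 passed without library C of 72 h. Such fits leave 1 library in a group, and the number of all tested genes that passed changed in each of them too. With no filter on low counts the count was 9, where 691 of 19900 genes passed in either direction. From 3 to 8 days 4 of 10 rose in MYCN-high cells (6.63% of tested genes): CCNA2, CCNB1, CCNB2 and CDC25C, by 1.13 to 1.58 on the log2 scale and upward by spike-in scaling. All or most of these calls were lost with any 1 library of the 2 times left out, in fits where fewer of all tested genes passed too. The count was 10 with no filter on low counts, where 2589 of 19900 genes passed in either direction.

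In MYCN-low cells 0 of 10 passed between 72 h and 3 days by edgeR or DESeq2 (0.0541% of tested genes passed by edgeR); 2 had an unadjusted p under 0.05, and 3 passed with no filter on low counts. From 3 to 8 days 3 of 10 rose there (0.662% of tested genes): CCNB1 (1.62 ± 0.28, edgeR adjusted p = 0.011), CCNB2 (2.26 ± 0.41, adjusted p = 0.016) and CDC25C (3.54 ± 0.67, adjusted p = 0.02), all upward by spike-in scaling as well. That scaling put the median of all tested genes at 0.50 in this step. All 3 calls were lost without library B or C of 3 days or library C of 8 days, and more of the 10 passed without library B of 8 days. Such fits leave 1 library in a group, and the number of all tested genes that passed changed in each of them too. With no filter 9 of the 10 passed (373 of 19900 genes in either direction), and 7 did by the DESeq2 Wald test (205 of 14793).

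Whether the response itself differed by MYCN state was tested as the change in MYCN-high minus the change in MYCN-low cells. At 72 h 7 of 10 genes fell less in MYCN-high cells (6.63% of tested genes differed in that direction), and spike-in scaling kept the sign of the 7. That scaling moved the median of all tested genes to 1.87 here, so a positive value tends to stay positive under it. CDC25C (5.35 ± 0.98, edgeR adjusted p = 0.0059) and PLK1 (4.50 ± 1.07, adjusted p = 0.018) differed most, CCNB1 (1.37 ± 0.39, adjusted p = 0.035) and CDC25B (1.31 ± 0.39, adjusted p = 0.043) least. CCNA2 (1.63 ± 0.65, adjusted p = 0.12), FOXM1 (2.14 ± 0.67, adjusted p = 0.054) and WEE1 (-0.60 ± 0.31, adjusted p = 0.21) did not pass, and WEE1 turned sign by spike-in scaling (1.01). Without MYCN-high library C at 72 h only CDC25C passed (3.76, adjusted p = 0.016), and without library B 9 passed. The count was 1 without MYCN-low library B and 3 without library C of 72 h, and among untreated libraries 4 without MYCN-high B, 2 without MYCN-high C and 4 without MYCN-low B.

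After washout 9 of 10 genes differed in the same direction at 3, 8 and 14 days, against 5.1%, 4.41% and 4.87% of tested genes, with the sign of the 9 kept by spike-in scaling. That scaling put the median of all tested genes at 1.17, 0.17 and -1.44 at these times. WEE1 was the exception at 3 days (0.61 ± 0.31, adjusted p = 0.23), at 8 days (0.99 ± 0.31, adjusted p = 0.069) and at 14 days (1.01 ± 0.35, adjusted p = 0.092) by edgeR, the last turned by spike-in scaling (-0.40). For CDK1 the differences were 3.99 ± 0.70, 2.74 ± 0.66 and 3.36 ± 0.79 at the 3 times (adjusted p = 0.0035, 0.025 and 0.02). The count at 3 days was 7 to 9 with a library left out. At 8 days it was 1 without untreated MYCN-high library B, 2 without untreated MYCN-high library C, 1 without MYCN-low library B of 8 days, and 5 and 4 without MYCN-high library B or C of 8 days. At 14 days it was 5 without either untreated MYCN-high library.

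**Figure D4:**
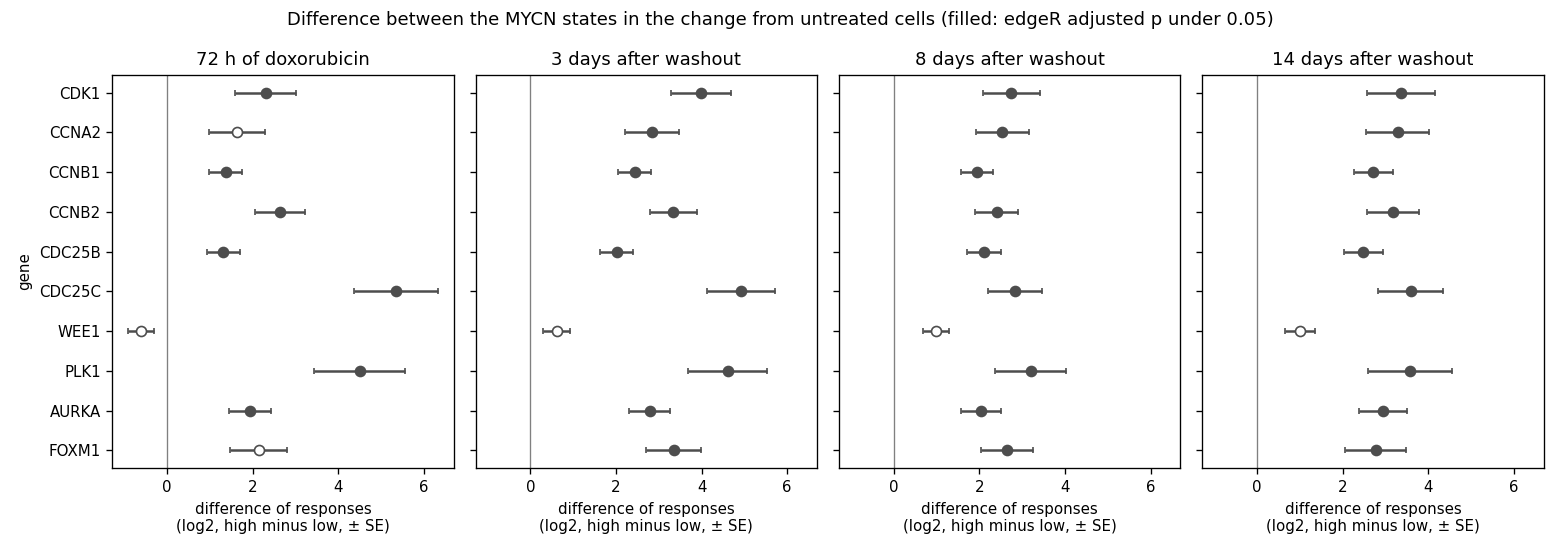
Difference between the states in the change from untreated cells (log2, MYCN-high minus MYCN-low, ± SE from edgeR) for each of the 10 genes at the 4 treated times; filled points passed the test. WEE1 lies nearest to 0 at every time, and below it at 72 h only (by spike-in scaling it lies above 0 at 72 h and below at 14 days).

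Ratios within a library do not depend on how libraries are scaled. The ratio of WEE1 to CDK1 counts sets the inhibitory kinase beside its target. It was 0.432 and 0.550 in untreated MYCN-high libraries, 3.20 and 1.15 at 72 h, 0.655 and 0.666 at 3 days, 0.471 and 0.462 at 8 days and 0.269 and 0.307 at 14 days. In MYCN-low libraries it was 0.607 and 0.392 untreated, 13.6 and 9.96 at 72 h, 7.82 and 5.69 at 3 days, 1.77 and 1.37 at 8 days and 1.40 at 14 days. The ratio was thus above both untreated values in every 72 h library of both states, and each MYCN-low library stayed above the untreated ones through 14 days, while MYCN-high libraries at 8 days lay inside the untreated pair and at 14 days below it. Counts are not per length, so the ratio compares libraries, not the 2 genes. The ratio of CCNB1 to CCNB2 was 10.8 to 11.7 in the MYCN-low libraries at 72 h and 3.57 to 3.88 untreated. In MYCN-high libraries at 72 h it was 9.09 in B and 5.63 in C, beside 5.20 and 5.36 untreated.

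**Figure D5:**
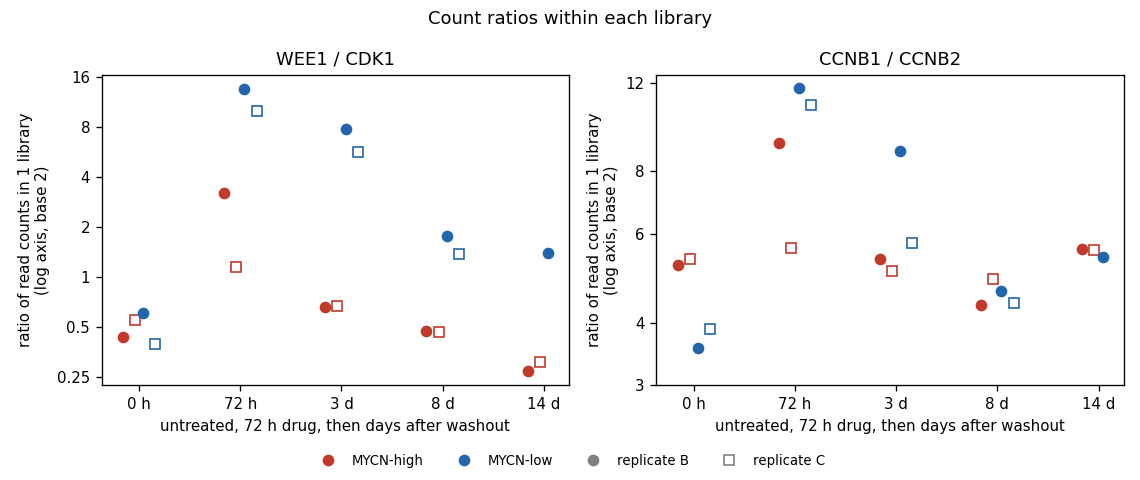
Ratio of WEE1 to CDK1 counts (left) and of CCNB1 to CCNB2 counts (right) in each library (log axes, base 2), MYCN-high in red and MYCN-low in blue, circles for replicate B and squares for replicate C. The WEE1 to CDK1 ratio reaches 13.6 in MYCN-low cells at 72 h and is 1.40 there at 14 days.

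The other genes of the same machinery were counted from 3 lists, whose choice was made with earlier results of these data known. Of 23 tested partners and regulators of CDK1, 14 were lower and 2 higher at 72 h in each state, beside 17.9% of tested genes lower and 18.3% higher in MYCN-high cells and 12.1% and 10.2% in MYCN-low cells, with median log2 changes of -2.43 in MYCN-high and -2.02 in MYCN-low cells; by spike-in scaling MASTL and CHEK2 turned in MYCN-high cells. CKS1B, a small subunit of CDK1 complexes, changed by -2.89 ± 0.22 and -2.95 ± 0.22 (edgeR adjusted p under the threshold in both), and the 2 that rose were CDKN1A, the p21 inhibitor of cyclin kinases (5.59 ± 0.40 and 4.15 ± 0.37), and GADD45A, a stress gene (1.09 ± 0.26 and 1.10 ± 0.26), both upward by spike-in scaling too. That scaling moved the medians of all tested genes upward as well, to 2.37 and 0.52, so a rise tends to stay a rise under it. CHEK1, the checkpoint kinase that acts against CDC25, fell by 3.43 on the log2 scale in MYCN-high cells, and CCNF and TPX2, an activator of AURKA, changed by -4.30 ± 0.37 and -5.68 ± 0.42 in MYCN-low cells. Each also had a lower mean at 72 h in the other state. CHEK1 went from 93.3 to 12.3 CPM in MYCN-low cells. In MYCN-high cells CCNF went from 83.2 to 10.4 CPM and TPX2 from 498 to 40.1 CPM.

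Of 13 subunits and partners of the MuvB complex, 8 were lower and 1 higher at 72 h in MYCN-high cells and 8 were lower in MYCN-low cells, beside the same shares of tested genes, with medians of -0.88 and -0.74 (0.03 and 0.01 over all tested genes); by spike-in scaling LIN52, LIN54, RBBP4, TFDP1 and DYRK1A turned in MYCN-high cells. MYBL2, which joins MuvB to activate late cell cycle genes, changed by -3.86 ± 0.54 in MYCN-high and by -9.51 ± 0.82 in MYCN-low cells, where its mean was 0.195 CPM. RBL1 changed by -2.71 ± 0.34 and -2.63 ± 0.34, LIN9 by -2.58 ± 0.22 and -1.93 ± 0.21, and TFDP2 was the 1 that rose (0.73 ± 0.17, MYCN-high cells), upward by spike-in scaling too. The upward shift of all tested genes under that scaling applies to TFDP2 as well.

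Of 20 mitotic genes associated with FOXM1, 20 were lower at 72 h in both states (17.9% and 12.1% of tested genes were), with medians of -3.98 and -7.57 and no reversal by spike-in scaling. KIF23, a motor of the central spindle, changed by -4.28 ± 0.31 in MYCN-high and by -5.36 ± 0.33 in MYCN-low cells, CDKN3, a phosphatase that acts on cyclin kinases, by -3.93 ± 0.31 and -5.08 ± 0.34, and CENPF, a kinetochore protein, by -3.81 ± 0.36 and -6.37 ± 0.41. At 72 h 19 of the 20 were higher in MYCN-high than in MYCN-low cells (15.5% of tested genes were, median log2 difference 3.50, beside 0.01 over all tested genes), and at 3, 8 and 14 days 20 of 20 were (17%, 23.4% and 21.4% of tested genes), with no reversal by spike-in scaling. The shifts of all tested genes given above for these contrasts under that scaling apply here too. From 72 h to 3 days the median log2 change of the 20 was 1.97 in MYCN-high and 1.17 in MYCN-low cells, positive by spike-in scaling in both. In that step 15 of the 20 rose by the test in MYCN-high cells (1.71% of tested genes did). In MYCN-low cells 0 of the 20 passed (0.0541% of tested genes did in either direction).

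Over the 10 group means of log2 CPM, which share the time course, the 9 genes other than WEE1 followed each other with Pearson's r of 0.915 to 0.997 (36 pairs, median 0.986), and WEE1 followed them with r of 0.814 to 0.934. These are descriptions over 10 groups, of which each untreated pair enters once. Among 10426 other genes with a mean of at least 5 CPM, those nearest to the mean of the 10 were SPC25 (r = 0.999), TPX2 (r = 0.998) and FANCD2 (r = 0.997). The nearest to CDK1 were NUSAP1, FANCD2 and CDCA2, to FOXM1 PHF19, RACGAP1 and KIF24, and to PLK1 NCAPH, TPX2 and CDCA8. WEE1 and CDC25B had less close neighbours: SMC1A (r = 0.978), CENPO and MYO19 for WEE1, and CHTF18 (r = 0.990), CCNF and KIF18A for CDC25B.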

How the data were processed

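RNA from 19 libraries was depleted of ribosomal RNA after ERCC spike-ins were added, per the labels' protocols, although the molecule field names polyA RNA. The authors' deposited table holds raw read counts per gene symbol. Per the submitters' processing notes, the tools were STAR 2.4.0h1 and HTSeq, with hg19; the annotation, the strand setting and the filters are not given in the sources used here, and antisense reads cannot be told apart.

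Groups came from the labels. Counts of 23367 genes (92 ERCC rows set aside) went into edgeR 4.0.16 (R 4.3.3): filterByExpr left 14793 genes, TMM scaled the libraries, and 1 quasi-likelihood fit with a coefficient per group (9 residual degrees of freedom, biological coefficient of variation 0.204) was tested in 21 contrasts: MYCN-high against MYCN-low at each time, treated against untreated, successive times, and the difference of responses. P-values were adjusted by the Benjamini-Hochberg method over all tested genes in each contrast, with a threshold of 0.05. They weigh each contrast against the spread between these libraries, estimated over all groups. The fit was tested on simulated data. CPM use TMM library sizes. The SE was derived from the F statistic of each test. Groups of 2 libraries are too small for a permutation test.

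Alternatives were DESeq2 1.42.0 size factors, the DESeq2 Wald test, no filter, a replicate block, scaling by summed ERCC counts, and leaving out each library. The 10 genes and the lists were chosen with earlier results of these data known. The count over all 10 is given in every contrast, with fitted values for some of them. Of each other list the counts are given, with up to 3 genes of smallest p at 72 h and any called against the direction of most. Neighbours are the 3 genes of highest r. Promoter windows came from RefSeq (GRCh38.p14); no reads were counted there, since the counts use another build. Some marker genes are not reported here.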

Additional observations from a re-analysis of the deposited data

Results flagged for a closer look

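The change from untreated cells differed between the MYCN states, by the test of that difference itself (edgeR, adjusted p under 0.05), in the results below; each value is the log2 change in MYCN-high cells minus that in MYCN-low cells, and each is positive, with the sign kept by spike-in scaling. After 72 h of doxorubicin the differences were 2.30 for CDK1, 1.37 for CCNB1, 2.65 for CCNB2, 1.31 for CDC25B, 5.35 for CDC25C, 4.5 for PLK1 and 1.93 for AURKA; 6 of these 7 calls were lost without MYCN-high library C of that time, CDC25C being the exception. At 3 days after washout they were 3.99 for CDK1, 2.84 for CCNA2, 2.44 for CCNB1, 3.34 for CCNB2, 2.01 for CDC25B, 4.92 for CDC25C, 4.61 for PLK1, 2.78 for AURKA and 3.34 for FOXM1. At 8 days they were 2.74 for CDK1, 2.54 for CCNA2, 1.95 for CCNB1, 2.4 for CCNB2, 2.11 for CDC25B, 2.83 for CDC25C, 3.20 for PLK1, 2.04 for AURKA and 2.64 for FOXM1. At 14 days they were 3.36 for CDK1, 3.28 for CCNA2, 2.72 for CCNB1, 3.17 for CCNB2, 2.49 for CDC25B, 3.59 for CDC25C, 3.56 for PLK1, 2.94 for AURKA and 2.77 for FOXM1, with 1 library in the MYCN-low group. By spike-in scaling the median difference over all tested genes was 1.87, 1.17, 0.17 and -1.44 at the 4 times. A positive value thus tends to keep its sign at the first of these. The 4 sets of differences share the untreated libraries. The counts with a library left out stand in the results above, and groups of 2 libraries are too small to test for single outlying libraries.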

How the results depend on the processing

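Counts of the 10 genes called were steady (within 1.5 times) under DESeq2 size factors and the DESeq2 Wald test except where given here, and the cause of each change was not tested. For MYCN-high cells at 8 days against untreated the count of 1 became 2 with DESeq2 size factors, the DESeq2 Wald test and the replicate block, and 7 with no filter. With no filter on low counts it was 9 for 3 days against 72 h and 10 for 8 against 3 days in MYCN-high cells, and 3 and 9 for the same steps in MYCN-low cells; the last was 7 with the DESeq2 Wald test and 5 with the replicate block. The block by letter changed no other count by over 1.5 times. The letters did not qualify as pairs: the C minus B differences of 2 groups correlated with r from -0.43 to 0.57 (36 pairs of groups over 10436 genes, 27 over 0.1).

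Spike-in scaling left 0 of the 10 called in every contrast except MYCN-low cells at 72 h against untreated, where it left 2. It left few of all 14793 tested genes called as well. Against untreated cells at 72 h, 70 passed in MYCN-high and 60 in MYCN-low cells, and fewer passed in every other contrast. The loss of calls is thus not particular to the 10 genes. It turned the sign of untreated MYCN-high against MYCN-low CDC25B (0.12), CDC25C (0.45), PLK1 (0.94) and FOXM1 (0.54), and of WEE1 at 72 h (1.78). Against untreated MYCN-high cells it turned CDC25B (0.41) and WEE1 (0.19) at 72 h, and CDK1 (0.034), CDC25B (0.61) and WEE1 (0.55) at 3 days. At 8 days it turned CCNA2 (0.26), CCNB1 (0.28), CCNB2 (0.51), CDK1 (0.49), CDC25B (1.08), CDC25C (0.48), PLK1 (0.16), WEE1 (0.52) and FOXM1 (0.37), and at 14 days CDK1 (-0.86). It also turned WEE1 from 3 to 8 days in MYCN-high cells (-0.030) and in the difference of responses at 72 h (1.01) and 14 days (-0.40).

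With 1 library left out, the count ran from 0 to 2 at 0 h and 5 to 9 at 72 h between the states, and 8 to 10 at 3 days. Against untreated MYCN-high cells it was 6 to 9 at 3 days and 0 at 8 days. It ran from 0 to 9 for 3 days against 72 h and 0 to 1 for 8 against 3 days in MYCN-high cells, and 0 to 5 for 8 against 3 days in MYCN-low cells. For the difference of responses it ran from 1 to 9 at 72 h, 7 to 9 at 3 days, 1 to 9 at 8 days and 5 to 9 at 14 days. In these fits, which leave 1 library in a group, the number of all tested genes that passed changed as well. Values near 0, none of them called, changed sign when a library was left out. Between untreated states these ran from -0.31 to 0.68 for CDK1, -0.52 to 0.53 for PLK1, -0.0028 to 0.35 for WEE1 and -0.61 to 0.062 for FOXM1. Against untreated MYCN-high cells they ran from -0.20 to 0.040 for CDC25B at 8 days, and at 14 days from -0.14 to 0.056 for CCNA2, -0.13 to 0.019 for CDC25C and -0.079 to 0.058 for CCNB1. In MYCN-low cells they ran from -0.17 to 0.060 for CDC25B from 72 h to 3 days and from -0.042 to 0.48 for WEE1 from 3 to 8 days.

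Depth limits CDC25C in MYCN-low cells at 72 h, with 3 reads in all, and 2 libraries a group limit every test. The lone MYCN-low library at 14 days could not be left out.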
